A study of Mus musculus with 7 samples.

Results

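The genes described here are Sox2, Sox3, Sox9, Sox21, Olig1, Olig2, Pdgfra, Prom1 and Fabp7, which are used as markers of stem-like or glial progenitor cells in brain tumours. They were taken by gene symbol, and all 9 were among the 24047 genes in the deposited count table. RNA was sequenced from SMB21 cells, a mouse medulloblastoma line from the strain background Ptch1tm1Mps/J with a Ptch mutant genotype, which all groups share and which was grown as neurospheres. The groups were CRISPR-Ofd1 (3 libraries, called Ofd1 CRISPR here), CRISPR-Kif3a (2 libraries, Kif3a CRISPR) and CRISPR-GFP (2 libraries, GFP control), each infected with a lentiCRISPR vector and collected 2 weeks later. Ofd1 encodes a protein of centrioles and the ciliary base, and Kif3a encodes a kinesin motor that carries cargo into growing cilia; the guide against GFP has no target in the mouse genome. The labels call the replicates biological and describe the line as coming from an adult. The sources used here do not say whether a library came from a clone or a pool of infected cells, so p-values measure the spread between these libraries only. The third GFP replicate of the series text was not analysed here.

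Sox proteins bind DNA through an HMG box and fall into lettered subgroups: Sox2 and Sox3 belong to SoxB1, which keeps neural progenitors undifferentiated, Sox21 belongs to SoxB2, which opposes that activity, and Sox9 belongs to SoxE, which gives radial glia their gliogenic competence. Olig1 and Olig2 are basic helix-loop-helix factors of the oligodendrocyte lineage, and Pdgfra is the receptor through which the ligand Pdgfa drives the division of oligodendrocyte precursors. Prom1 encodes prominin-1 (CD133), a membrane protein of neural stem cells that sits on cellular protrusions, and Fabp7 encodes the brain lipid-binding protein of radial glia and Bergmann glia. In mouse medulloblastoma with active Hedgehog signalling, Sox2-positive cells are known as a slowly dividing population that regenerates the tumour, and Olig2-positive progenitors are known from early and recurrent tumours.

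Proximal promoters are shown for 2 members called lower, Sox2 and Pdgfra, and for 2 not called lower, Sox21 and Prom1. The bases just upstream of each gene can so be read beside its values. Each line gives the 250 bases before the annotated start, 5′ to 3′ on the strand of the gene, from RefSeq for the build GRCm38.p6, and capitals mark a motif match. The Sox2 window lies at chr3:34649745-34649994 on the + strand, the Pdgfra window at chr5:75152001-75152250 on the + strand, the Sox21 window at chr14:118237031-118237280 on the - strand and the first of the 2 Prom1 windows at chr5:44101737-44101986 on the - strand.
Sox2: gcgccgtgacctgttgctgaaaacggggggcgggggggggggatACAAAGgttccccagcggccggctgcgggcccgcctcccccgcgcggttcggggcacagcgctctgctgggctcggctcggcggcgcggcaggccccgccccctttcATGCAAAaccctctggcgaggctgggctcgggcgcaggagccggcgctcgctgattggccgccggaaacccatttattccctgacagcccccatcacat
Pdgfra: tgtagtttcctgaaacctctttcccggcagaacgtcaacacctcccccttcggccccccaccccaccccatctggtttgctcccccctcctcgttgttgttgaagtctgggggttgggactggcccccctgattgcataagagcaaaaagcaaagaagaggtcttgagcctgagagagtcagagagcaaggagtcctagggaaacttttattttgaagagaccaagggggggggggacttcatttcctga
Sox21: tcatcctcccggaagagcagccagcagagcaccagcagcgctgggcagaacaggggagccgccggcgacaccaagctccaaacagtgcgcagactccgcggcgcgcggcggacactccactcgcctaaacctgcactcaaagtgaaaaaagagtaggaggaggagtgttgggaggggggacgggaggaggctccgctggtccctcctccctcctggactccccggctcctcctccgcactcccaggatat
Prom1: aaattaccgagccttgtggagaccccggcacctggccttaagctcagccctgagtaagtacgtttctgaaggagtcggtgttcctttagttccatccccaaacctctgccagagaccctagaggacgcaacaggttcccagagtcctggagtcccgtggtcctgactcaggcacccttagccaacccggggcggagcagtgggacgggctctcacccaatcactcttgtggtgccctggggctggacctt
Promoters of 6 of the 9 members were matched by symbol; Sox3, Sox9 and Olig1 were not. Both strands of 7 windows were searched for the Sox cores ACAAAG and ACAATG, the octamer-like run ATGCAAA and the Gli site GACCACCCA. The letters were picked with these sequences in view, and matches to ACAATG and ATGCAAA can share the bases ATG. The Sox2 window held ACAAAG, starting 206 bases before the gene start, and ATGCAAA, starting 99 bases before it. Olig2 held ACAATG on the reverse strand, 68 bases before the start, and the windows of Sox21, Pdgfra, Prom1 and Fabp7 held none of the 4 runs. Among all 32851 windows of the same length, 16.5% held ACAAAG, 10.7% held ACAATG, 4.12% held ATGCAAA and 0.225% held GACCACCCA. The Sox2 window had a GC content of 72.0% and the Pdgfra window 54.4%, against a median of 52.4% over all windows.

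Library totals ran from 17961767 to 23022701 counts. Levels are given in CPM, the reads of a gene scaled with TMM factors to a common library total, and a count of 3, the limit that a count of 0 allows, was worth 0.130 to 0.167 CPM in a library. Kif3a mRNA had 73.9 and 60.5 CPM in Kif3a CRISPR, against 104 CPM in both GFP control libraries (log2 -0.63, edgeR adjusted p = 0.000854). Ofd1 mRNA had 20.99, 20.02 and 21.99 CPM in Ofd1 CRISPR, against 22.5 and 23.1 CPM in GFP control (log2 -0.12, adjusted p = 0.398). An edited gene can still be transcribed, so this level does not check the label. In Kif3a CRISPR, Ofd1 mRNA stood at 31.6 and 29.0 CPM. It was called higher there than in GFP control, and lower in Ofd1 CRISPR than in Kif3a CRISPR. Both calls depended on which libraries were kept, and the second was lost with only the 2 groups compared (log2 -0.54, edgeR adjusted p = 0.0962). The Hedgehog targets Ptch1 (log2 -0.91 in Ofd1 CRISPR, adjusted p = 0.00265; -1.25 in Kif3a CRISPR, adjusted p = 0.000559) and Hhip (-1.47, adjusted p = 0.0023; -1.45, adjusted p = 0.00315) were lower than in GFP control cells, the Hhip call in Kif3a CRISPR being lost without Kif3a CRISPR replicate 1 (0.0964). Gli1 was lower too (-0.84, adjusted p = 0.0257; -0.82, adjusted p = 0.0349), but its calls were lost by DESeq2 (0.0989 and 0.137), without GFP control replicate 1 (0.0694 and 0.0772) or 2 (0.128 and 0.127), and in Kif3a CRISPR also without Kif3a CRISPR replicate 1 (0.321). One library stood apart in other cell types: 11 of 15 myeloid markers were highest in GFP control replicate 1, where they summed to 32.2 CPM, against 2.96 CPM in GFP control replicate 2, 3.44 to 4.88 CPM in Ofd1 CRISPR and 3.37 to 3.66 CPM in Kif3a CRISPR, with Cx3cr1 at 0 in all libraries. For that reason the log2 differences of the members that changed are also given without that library.

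Of the 9 genes, 7 had enough counts to be tested and Sox3 and Olig1 did not. In Ofd1 CRISPR cells Sox2, Sox9 and Pdgfra fell, 3 of the 7 tested, where 14.9% of all 12875 tested genes changed at an adjusted p under 0.05, 8.09% falling and 6.79% rising. In Kif3a CRISPR cells the same 3 genes fell and Prom1 rose, where 20.1% of all tested genes changed, 10.9% falling and 9.19% rising. Sox21, Olig2 and Fabp7 passed the test in neither comparison. Both comparisons use the same GFP control libraries and so are not independent of each other.

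**Figure D1:**
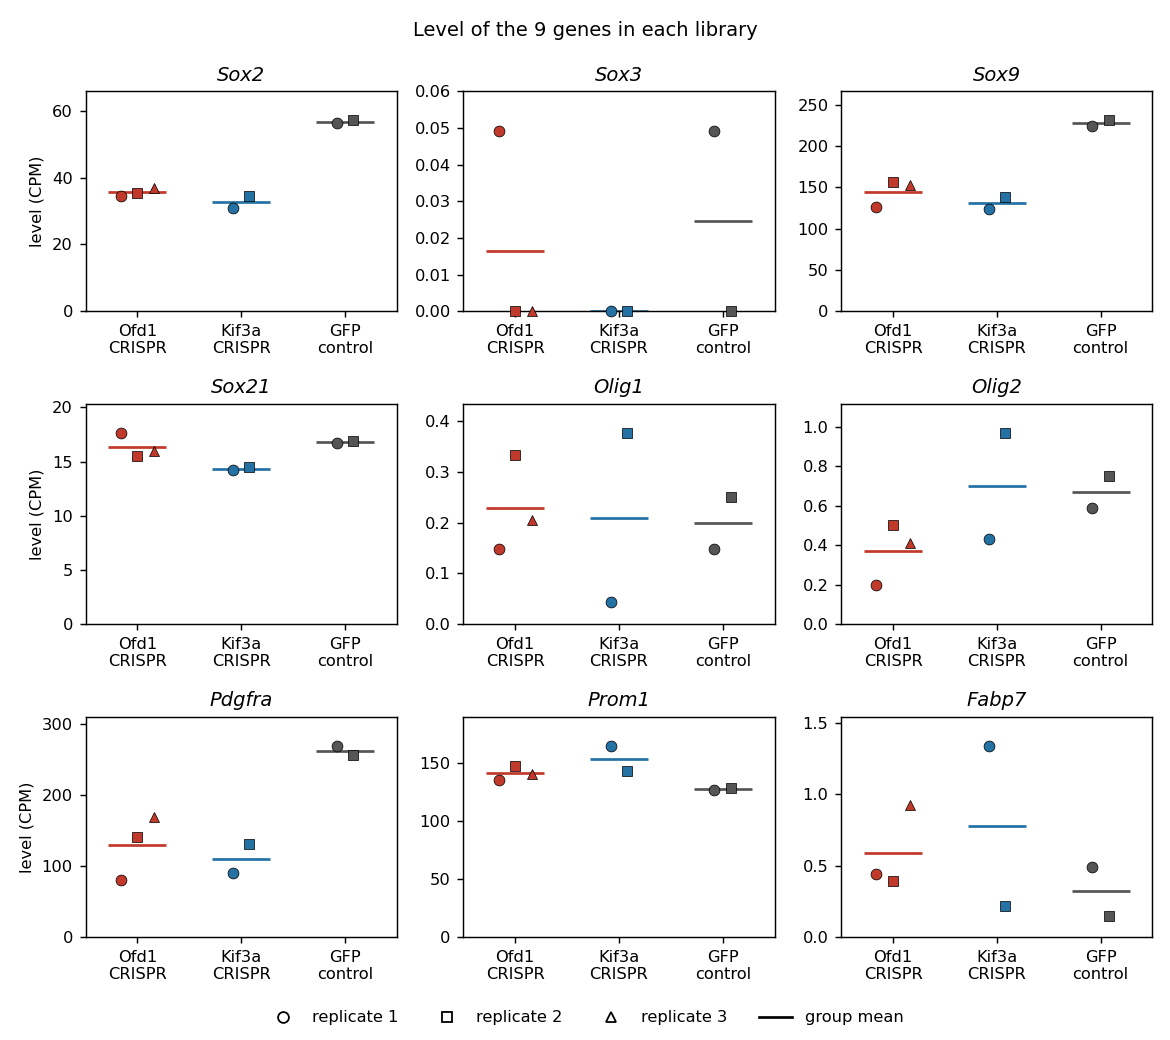
Level of each of the 9 genes in every library, in CPM on a linear axis from 0 that differs between panels; points are libraries, their shape is the replicate and lines are group means, with Ofd1 CRISPR left, Kif3a CRISPR in the middle and GFP control right. Sox2, Sox9 and Pdgfra sit lower in all 5 edited libraries than in both GFP control libraries, while Olig1, Olig2, Sox3 and Fabp7 stay below 1.5 CPM in every library.

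A description of the set as stem-like factors with Olig2 among them did not hold for 4 of its genes, which were scarce in every library. Olig2 had 4, 9 and 8 counts in the Ofd1 CRISPR libraries, 10 and 18 in the Kif3a CRISPR libraries, and 12 and 15 in the GFP control libraries. Olig1, its neighbour and partner in the oligodendrocyte lineage, had 3, 6 and 4 counts in Ofd1 CRISPR, 1 and 7 in Kif3a CRISPR, and 3 and 5 in GFP control. Sox3, the X-linked SoxB1 gene, had 1 count in Ofd1 CRISPR replicate 1, 1 count in GFP control replicate 1 and none in the other libraries. Sox3 lay below the limit that a count of 0 allows and Olig1 near it, in controls as well as in edited cells, while Olig2 was above it in every library.

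Pooled over libraries, Olig2 stood at 0.364 CPM in Ofd1 CRISPR (exact Poisson interval 0.225 to 0.556, counting error only), 0.671 CPM in Kif3a CRISPR (0.446 to 0.970) and 0.670 CPM in GFP control (0.441 to 0.974). Its 3 Ofd1 CRISPR libraries, at 0.197, 0.501 and 0.411 CPM, lay below both GFP control libraries, at 0.589 and 0.751 CPM, but the log2 difference of -0.87 (SE 0.505, 95% interval -1.97 to 0.24) did not pass the test (edgeR adjusted p = 0.272). In Kif3a CRISPR the libraries, at 0.432 and 0.970 CPM, lay on both sides of the controls (log2 difference 0.02, adjusted p = 0.982). A difference in Olig2 was not detected with these few counts.

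Fabp7 was similarly scarce, with 9, 7 and 18 counts in Ofd1 CRISPR, 31 and 4 in Kif3a CRISPR, and 10 and 3 in GFP control. The highest value, 1.34 CPM, and one of the lowest, 0.216 CPM, were the replicates of a single group, Kif3a CRISPR. Its log2 difference was 0.86 (SE 0.770, adjusted p = 0.488) in Ofd1 CRISPR and 1.33 (SE 0.776, adjusted p = 0.253) in Kif3a CRISPR, neither past the test. The epidermal family member Fabp5, by contrast, held 57.1 to 63.8 CPM in Ofd1 CRISPR, 61.0 to 61.8 CPM in Kif3a CRISPR and 55.3 to 59.6 CPM in GFP control; it was the only 1 of 3 other Fabp genes with enough counts to test, its log2 difference was 0.09 in both comparisons, and it did not pass by edgeR (unadjusted p = 0.238 and 0.278) or DESeq2. Fabp3, the heart form, was at 0 throughout.

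Sox2 had 34.6, 35.4 and 36.8 CPM in Ofd1 CRISPR, 30.9 and 34.6 CPM in Kif3a CRISPR, and 56.2 and 57.2 CPM in GFP control. All 5 edited libraries lay below both controls, with little spread inside any group; 25% of all tested genes had every Ofd1 CRISPR library below both controls, and 32.4% every Kif3a CRISPR library. The mean was 35.6 ± 1.14 CPM in Ofd1 CRISPR (SD, n = 3), 32.7 ± 2.63 CPM in Kif3a CRISPR (SD, n = 2) and 56.7 ± 0.709 CPM in GFP control (SD, n = 2). In Ofd1 CRISPR cells it fell by 0.67 on the log2 scale (SE 0.0762, 95% interval -0.84 to -0.50, edgeR adjusted p = 0.000361), a loss of 37.2%. In Kif3a CRISPR cells it fell by 0.79 (SE 0.0848, interval -0.98 to -0.61, adjusted p = 0.000129). Without GFP control replicate 1 the log2 differences were -0.69 in Ofd1 CRISPR (adjusted p = 0.00437) and -0.81 in Kif3a CRISPR (adjusted p = 0.00145). Sox2 lies inside the long non-coding gene Sox2ot on the same strand, and reads of the 2 cannot be told apart where they overlap; Sox2ot itself was listed at 0.148 to 0.651 CPM.

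Sox9 had 126, 156 and 153 CPM in Ofd1 CRISPR, 123 and 138 CPM in Kif3a CRISPR, and 224 and 231 CPM in GFP control, again with no overlap between edited and control libraries. Replicate 1 was the lowest library of each edited group. The means were 145 ± 16.4 CPM (SD, n = 3), 131 ± 10.7 CPM (SD, n = 2) and 228 ± 5.37 CPM (SD, n = 2) in the same order of groups. Sox9 fell by 0.65 in Ofd1 CRISPR (SE 0.0911, interval -0.85 to -0.45, adjusted p = 0.00105) and by 0.80 in Kif3a CRISPR (SE 0.101, interval -1.02 to -0.58, adjusted p = 0.00034). Without GFP control replicate 1 these were -0.68 (adjusted p = 0.00756) and -0.82 (adjusted p = 0.0022). In bulk RNA, fewer cells that make Sox2 or Sox9 and less of either RNA per cell cannot be told apart.

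Pdgfra, the receptor, moved further and varied more. Its level was 79.5, 140.2 and 168 CPM in Ofd1 CRISPR, 89.4 and 131 CPM in Kif3a CRISPR, and 269 and 256 CPM in GFP control. The edited libraries were all lower than the controls but spread widely, from 30.3% to 64.3% of the GFP mean in Ofd1 CRISPR and from 34.1% to 49.8% in Kif3a CRISPR, with replicate 1 the lowest of each. The log2 difference was -1.02 in Ofd1 CRISPR (SE 0.230, interval -1.52 to -0.52, adjusted p = 0.0126) and -1.26 in Kif3a CRISPR (SE 0.260, interval -1.82 to -0.69, adjusted p = 0.00605). These calls rest on single libraries: the Ofd1 call did not pass once GFP control replicate 1 was left out (log2 -0.99, adjusted p = 0.0639) and the Kif3a call without Kif3a CRISPR replicate 1 (log2 -0.998, adjusted p = 0.134). Without GFP control replicate 1 the Kif3a difference was -1.22 (adjusted p = 0.0256).

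Prom1 went the other way. It stood at 136, 147 and 141 CPM in Ofd1 CRISPR, 165 and 143 CPM in Kif3a CRISPR, and 127 and 129 CPM in GFP control. Every edited library lay above both controls, by a small margin that was widest in Kif3a CRISPR replicate 1; 24.5% of all tested genes had every Ofd1 CRISPR library above both controls, and 34% every Kif3a CRISPR library. The rise passed the test in Kif3a CRISPR (log2 0.27, SE 0.0818, interval 0.09 to 0.45, adjusted p = 0.0372) and not in Ofd1 CRISPR (log2 0.14, SE 0.0751, interval -0.02 to 0.31, adjusted p = 0.22). Leaving out either control ended the Kif3a call (log2 0.26 without GFP control replicate 1 and 0.28 without replicate 2), as did leaving out Kif3a CRISPR replicate 1 (log2 0.17).

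Sox21, the SoxB2 gene, had 17.6, 15.5 and 15.98 CPM in Ofd1 CRISPR, 14.2 and 14.5 CPM in Kif3a CRISPR, and 16.8 and 16.9 CPM in GFP control. Ofd1 CRISPR libraries fell on both sides of the controls, and Kif3a CRISPR libraries lay just below them. Neither difference passed the test: -0.04 in Ofd1 CRISPR (SE 0.103, interval -0.26 to 0.19, adjusted p = 0.833) and -0.23 in Kif3a CRISPR (SE 0.114, interval -0.48 to 0.02, adjusted p = 0.176). Sox21, Pdgfra and Prom1 each overlap a gene on the opposite strand in GENCODE M21, and with the strand setting of the counting unknown, reads of such pairs cannot be told apart.

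**Figure D2:**
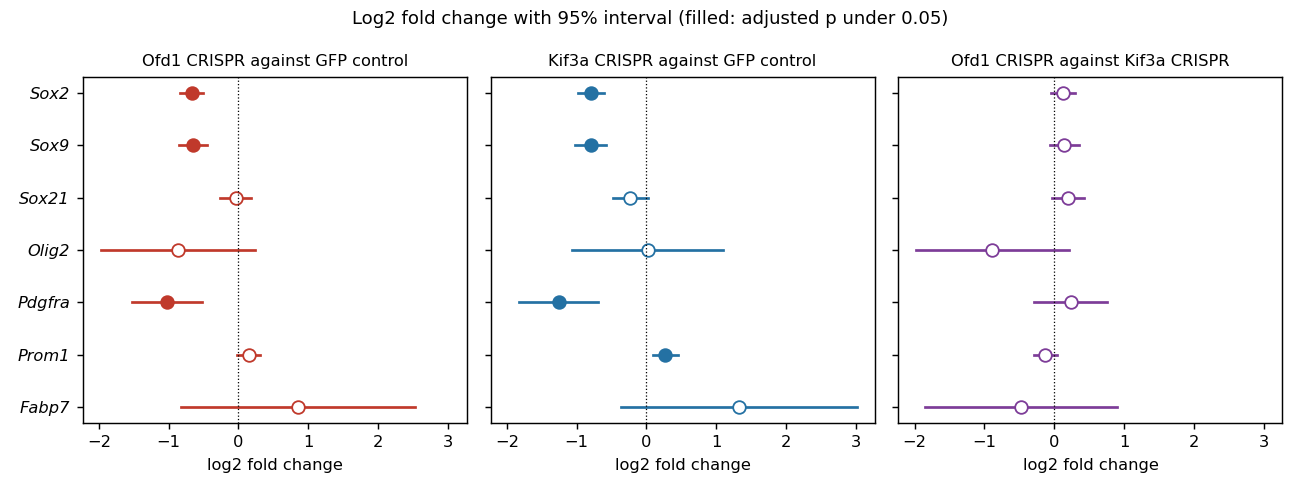
Log2 difference of the 7 tested genes with its 95% interval (edgeR), for Ofd1 CRISPR against GFP control (left), Kif3a CRISPR against GFP control (middle) and Ofd1 CRISPR against Kif3a CRISPR (right); filled points passed at an adjusted p under 0.05. Sox2, Sox9 and Pdgfra lie left of 0 in both comparisons with GFP, Prom1 lies right of 0 in them, and the intervals of Olig2 and Fabp7 are the widest.

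The 2 edited groups were also compared with each other. None of the 7 tested genes passed the test between Ofd1 CRISPR and Kif3a CRISPR, by edgeR (0 adjusted calls and 0 at an unadjusted p under 0.05) or by DESeq2 (0 calls), where 0.179% of all tested genes did by edgeR, 0.171% higher and 0.00777% lower in Ofd1 CRISPR. The log2 difference of Ofd1 over Kif3a was 0.12 for Sox2 (95% interval -0.05 to 0.30, adjusted p = 0.651), 0.15 for Sox9 (-0.06 to 0.35, adjusted p = 0.651), 0.24 for Pdgfra (-0.28 to 0.76, adjusted p = 0.796), -0.13 for Prom1 (-0.29 to 0.04, adjusted p = 0.616) and 0.19 for Sox21 (-0.04 to 0.42, adjusted p = 0.589). Each of these intervals includes 0, so a difference in either direction remains possible, and that for Pdgfra is the widest of them.

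Divided by transcript length, the order of the set in GFP control cells was Sox9 at 55.0 ± 1.299 CPM per kb, Pdgfra at 38.4 ± 1.36, Prom1 at 31.3 ± 0.249, Sox2 at 27.6 ± 0.345 and Sox21 at 4.43 ± 0.0332 (SD, n = 2 each). Fabp7 at 0.364, Olig2 at 0.265, Olig1 at 0.0920 and Sox3 at 0.0119 CPM per kb followed. The libraries of Fabp7 and Olig2 overlapped in this order, and no other neighbours did. In Ofd1 CRISPR, Sox9 at 35.02 ± 3.98 and Prom1 at 34.5 ± 1.42 CPM per kb overlapped at the top, and Pdgfra at 18.9 ± 6.65 and Sox2 at 17.3 ± 0.555 overlapped below them (SD, n = 3 each). In Kif3a CRISPR, Prom1 led at 37.7 ± 3.82 CPM per kb, followed by Sox9 at 31.6 ± 2.59, with Pdgfra at 16.1 ± 4.26 and Sox2 at 15.9 ± 1.28 again overlapping (SD, n = 2 each). Prom1 thus lay below Sox9 and Pdgfra in the order of levels in controls and at or beside the top in edited cells. Lengths are those of the longest coding transcript in GENCODE M21 for GRCm38, which may differ from the gene models that were counted.

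**Figure D3:**
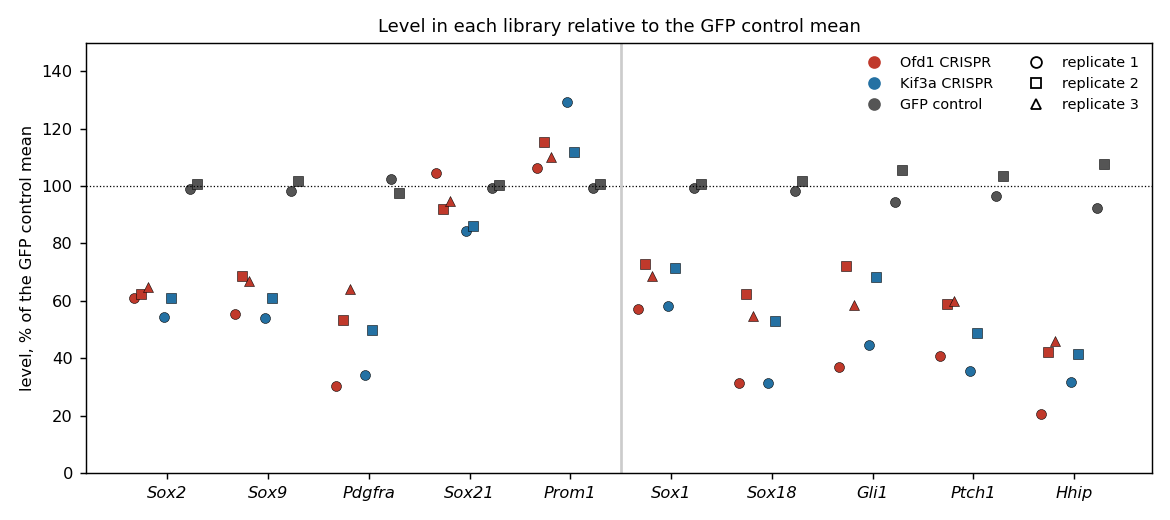
Level in each library as a percent of the GFP control mean for 5 of the 9 genes (left of the grey line) and for Sox1, Sox18, Gli1, Ptch1 and Hhip (right of it); colour is the group, shape the replicate, and the dotted line the GFP control mean. Sox2 stays between 61.0% and 65.0% in Ofd1 CRISPR, while Pdgfra runs from 30.3% to 64.3%.

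Replicate 1 of both edited groups was the lowest library of its group for Sox9, Pdgfra, Sox18, Gli1, Ptch1 and Hhip. In Ofd1 CRISPR replicate 1, Pdgfra stood at 30.3% and Sox9 at 55.3% of the GFP mean, beside Gli1, a target and effector of the pathway, at 37.1%, and Hhip at 20.4%. Kif3a CRISPR replicate 1 had Pdgfra at 34.1%, Sox9 at 54.2%, Gli1 at 44.6% and Hhip at 31.8%. Replicate 2 of these groups had Pdgfra at 53.5% and 49.8%, and Gli1 at 72.1% and 68.5%, Ofd1 CRISPR first. Sox2 varied less, at 61.0%, 62.5% and 65.0% in Ofd1 CRISPR and 54.4% and 61.0% in Kif3a CRISPR. How completely each library was edited was not measured here, and its part in this spread was not tested.

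Across the 19 Sox genes of the list, counting the 4 in the set, 12 were tested. In Ofd1 CRISPR 7 fell, none rose and 5 did not pass, with a median log2 difference of -0.43, against 0.00 over all tested genes. In Kif3a CRISPR 6 fell, none rose and 6 did not pass, with a median of -0.43, against 0.01. Of all tested genes, 8.09% fell in Ofd1 CRISPR and 10.9% in Kif3a CRISPR. Of the 15 Sox genes outside the set, 9 were tested, of which 5 fell in Ofd1 CRISPR and 4 in Kif3a CRISPR. No Sox gene rose by DESeq2 either, and by unadjusted edgeR p under 0.05 only 1 was higher, in Ofd1 CRISPR. These counts depend on single libraries: among the 9, the falls in Ofd1 CRISPR numbered 2 with the first GFP control library left out and 1 with the second left out, and in Kif3a CRISPR 0 without Kif3a CRISPR replicate 1. DESeq2 called 3 and 4 falls.

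By subgroup, both tested SoxB1 genes fell in both comparisons, where 8.09% of all tested genes fell in Ofd1 CRISPR and 10.9% in Kif3a CRISPR. Sox1, the other SoxB1 gene of neural progenitors, had 126, 160.2 and 151 CPM in Ofd1 CRISPR, 128 and 157 CPM in Kif3a CRISPR, and 218 and 221 CPM in GFP control. Edited libraries lay below the controls with no overlap (log2 -0.59, SE 0.104, adjusted p = 0.00336 in Ofd1 CRISPR; -0.63, SE 0.115, adjusted p = 0.00296 in Kif3a CRISPR, which did not pass with Kif3a CRISPR replicate 1 left out, at adjusted p = 0.0746). SoxB1 therefore moved through Sox1 and Sox2, with Sox3 near 0. Sox1 overlaps Sox1ot on the same strand in GENCODE M21, and reads of this pair cannot be told apart where they overlap.

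Both tested SoxE genes fell too, where 8.09% of all tested genes fell in Ofd1 CRISPR and 10.9% in Kif3a CRISPR. Sox8, a relative of Sox9 in glial development, had a log2 difference of -0.40 in Ofd1 CRISPR (SE 0.101, adjusted p = 0.0228) and -0.57 in Kif3a CRISPR (SE 0.112, adjusted p = 0.00446). The first call ended on leaving out either control (0.0951 and 0.171) or Ofd1 CRISPR replicate 1 (0.0551), and the second without Kif3a CRISPR replicate 1 (0.0701). Sox10, the SoxE gene of oligodendrocytes, was at 0 in every library, as were Sox14 of SoxB2 and Sox17 of SoxF.

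Sox18, a SoxF gene known for vessel development, had 209.7, 419 and 369 CPM in Ofd1 CRISPR, 212 and 356 CPM in Kif3a CRISPR, and 661 and 684 CPM in GFP control. Per length it was the highest of the 19 Sox genes in each group, at 205 CPM per kb in Ofd1 CRISPR, 175 in Kif3a CRISPR and 415 in GFP control. All edited libraries were lower than both controls, and replicate 1 was the lowest in each edited group. The log2 difference was -1.02 in Ofd1 CRISPR (SE 0.241, adjusted p = 0.0162), lost without GFP control replicate 1 (0.0599) or 2 (0.0652) and by DESeq2 (0.0572). In Kif3a CRISPR it was -1.25 (SE 0.271, adjusted p = 0.00794), lost without Kif3a CRISPR replicate 1 (0.145). The 7 endothelial markers summed to 1.63 to 1.95 CPM in Ofd1 CRISPR, 0.993 to 1.45 CPM in Kif3a CRISPR and 2.40 to 3.14 CPM in GFP control, with Cldn5 at 0. They did not all move together: Esam averaged 0.465 CPM in Ofd1 CRISPR, 0.588 CPM in Kif3a CRISPR and 0.150 CPM in GFP control. Flt1 had 1.18 CPM in GFP control replicate 1 and 0 in GFP control replicate 2.

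In SoxD, Sox5 fell in Ofd1 CRISPR (log2 -0.45, SE 0.0854, adjusted p = 0.00498), which did not pass with the second GFP control library left out (0.0643), and was at -0.28 in Kif3a CRISPR (adjusted p = 0.0504; it passed in 5 alternatives, at 0.0216 to 0.0472). Sox13, named after its values were seen, had 8.33, 15.4 and 15.6 CPM in Ofd1 CRISPR, 8.25 and 15.4 CPM in Kif3a CRISPR, and 27.9 and 28.6 CPM in GFP control, with replicate 1 again lowest. Its call (log2 -1.11, adjusted p = 0.0123; -1.27, adjusted p = 0.00845) was lost in Ofd1 CRISPR without either GFP control library (0.0534 and 0.054) and by DESeq2 (0.0563), and in Kif3a CRISPR without Kif3a CRISPR replicate 1 (0.143). The 3 SoxC genes Sox4, Sox11 and Sox12, which act in differentiating neurons, passed in neither comparison by edgeR or DESeq2; 1 of them was higher at an unadjusted p under 0.05 in Ofd1 CRISPR and none in Kif3a CRISPR. Sox4 passed as higher in Ofd1 CRISPR when Ofd1 CRISPR replicate 3 was left out (log2 0.27, adjusted p = 0.0341) and under the replicate block (log2 0.27, adjusted p = 0.0158).

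**Figure D4:**
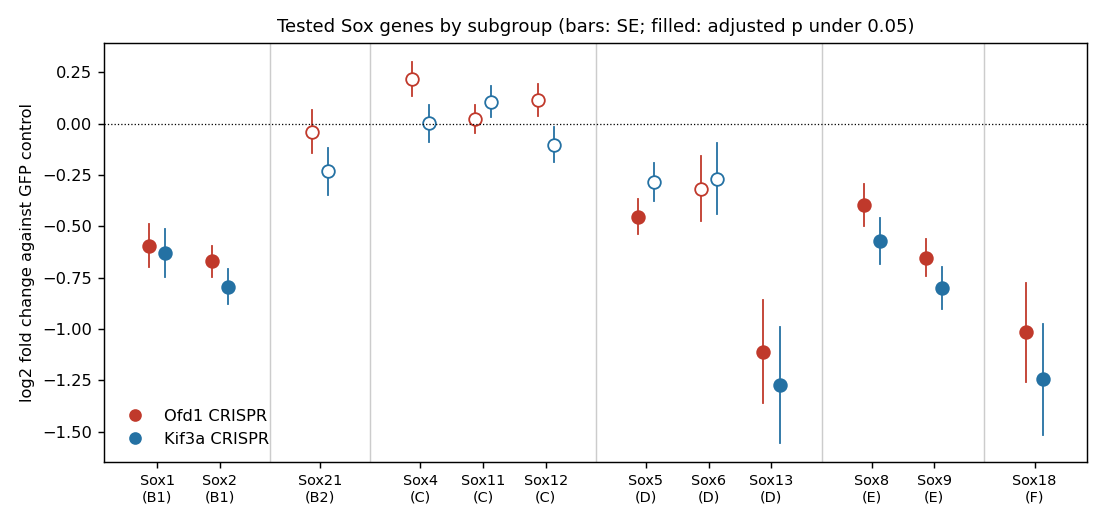
Log2 difference from GFP control (edgeR) of the 12 tested Sox genes, ordered by subgroup letter, in Ofd1 CRISPR (red, left of each pair) and Kif3a CRISPR (blue); bars are SE and filled points passed at an adjusted p under 0.05. The SoxB1, SoxE and SoxF genes lie below 0 in both comparisons, and no SoxC point is filled.

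Pdgfra fell together with one of its ligands. Pdgfa, its main ligand in the brain, had 9.26, 9.57 and 10.5 CPM in Ofd1 CRISPR, 7.04 and 9.21 CPM in Kif3a CRISPR, and 19.6 and 17.4 CPM in GFP control. Edited and control libraries were far apart, and the fall passed in all 13 alternatives of each comparison (log2 -0.92, SE 0.133, adjusted p = 0.00125 in Ofd1 CRISPR; -1.20, SE 0.151, adjusted p = 0.000323 in Kif3a CRISPR). Pdgfc, another ligand of the same receptor, had 11.5, 8.34 and 7.66 CPM in Ofd1 CRISPR, 10.7 and 11.2 CPM in Kif3a CRISPR, and 5.89 and 5.06 CPM in GFP control. Its rise passed in Ofd1 CRISPR (log2 0.74, SE 0.183, adjusted p = 0.0193; lost without GFP control replicate 1 at 0.0686 or 2 at 0.152) and in Kif3a CRISPR (log2 0.99, SE 0.195, adjusted p = 0.00439). Of the 5 PDGF ligands and second receptor, these were the 2 tested; Pdgfb and Pdgfd stayed at or below 0.648 CPM, and Pdgfrb, the second receptor, had 1 count in 1 library.

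**Figure D5:**
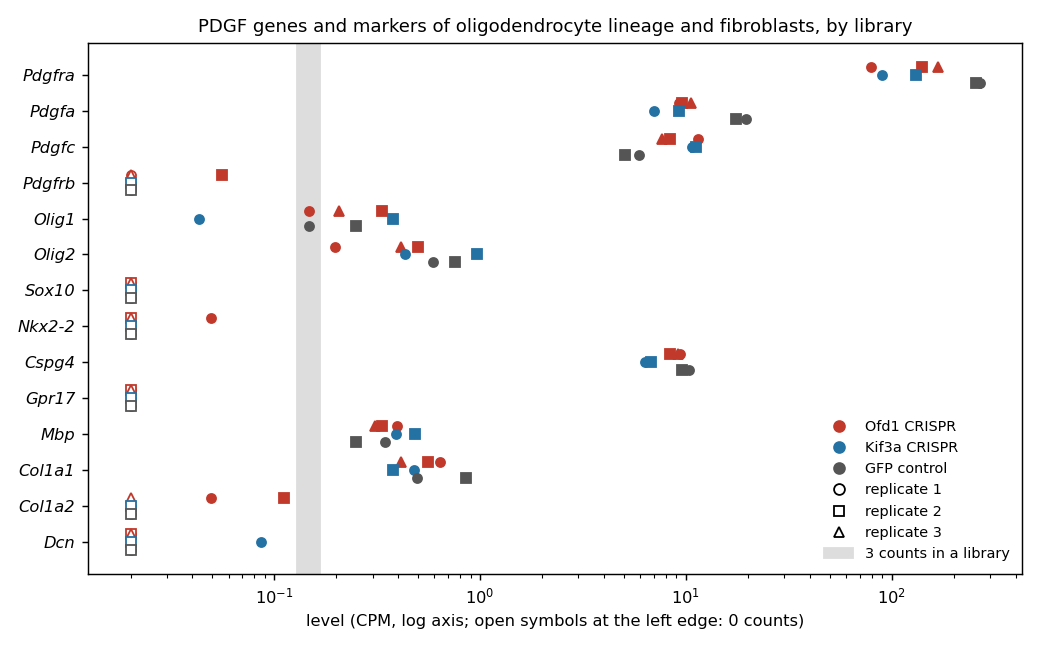
Levels of PDGF genes, oligodendrocyte lineage genes and fibroblast genes in every library, in CPM on a log axis; in each row Ofd1 CRISPR lies above Kif3a CRISPR and GFP control, shape is the replicate, open symbols at the left edge are 0 counts, and the grey band is what 3 counts are worth. Pdgfra and Pdgfa are lower and Pdgfc is higher in all edited libraries than in both controls, while Olig1 and Olig2 stay below 1 CPM and Sox10 and Gpr17 are at 0.

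The other oligodendrocyte genes gave the low Olig1 and Olig2 levels their setting. Of 18 such genes 8 were tested: 1 rose and none fell in Ofd1 CRISPR (median log2 0.02), and 1 rose and 2 fell in Kif3a CRISPR (median 0.02), where 14.9% and 20.1% of all tested genes changed. Some of the list were well expressed: Bcas1 held 74.98 to 93.6 CPM in Ofd1 CRISPR, 85.1 to 90.2 CPM in Kif3a CRISPR and 101.8 to 102.3 CPM in GFP control, and Tcf7l2 held 28.98 to 33.7 CPM over all libraries. Bcas1 lay below both controls in every edited library but did not pass. It passed as lower under the replicate block (edgeR adjusted p = 0.00635 in Ofd1 CRISPR and 0.0385 in Kif3a CRISPR). It also passed in Ofd1 CRISPR without replicate 3 of that group (0.0283), and in Kif3a CRISPR with only these groups in the fit (0.0265) or without Ofd1 CRISPR replicate 1 (0.043). Lhfpl3, an oligodendrocyte precursor marker, rose by 1.20 in Ofd1 CRISPR (adjusted p = 0.0227; lost by DESeq2 and on leaving out any of 5 libraries) and by 1.81 in Kif3a CRISPR (adjusted p = 0.00194), at no more than 2.05 CPM. Cspg4, which encodes the NG2 proteoglycan that oligodendrocyte precursors share with pericytes, fell in Kif3a CRISPR (log2 -0.62, adjusted p = 0.01), as did the myelin enzyme gene Cnp (log2 -0.38, adjusted p = 0.0335). Both falls were lost with the first GFP control library left out (0.0925 and 0.184) and without Kif3a CRISPR replicate 1 (0.0886 and 0.0994), and that of Cnp also without GFP control replicate 2 (0.1) or Kif3a CRISPR replicate 2 (0.163). Nkx6-1, Gpr17 and Mog were at 0 in every library, as Sox10 was.

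Other genes of neural stem cells and radial glia, the setting of Sox2, Sox9, Prom1 and Fabp7, changed about as often as all tested genes, of which 14.9% changed in Ofd1 CRISPR and 20.1% in Kif3a CRISPR. Of 22 such genes 18 were tested, and 2 rose, 2 fell and 14 did not pass in each comparison with GFP (median log2 -0.13 in Ofd1 CRISPR and -0.16 in Kif3a CRISPR). Vim, an intermediate filament gene of radial glia, rose by 0.39 in Ofd1 CRISPR (adjusted p = 0.0082) and 0.37 in Kif3a CRISPR (adjusted p = 0.0131). Hes5, a Notch target, rose by 0.94 (adjusted p = 0.0224) and 0.97 (adjusted p = 0.0194), and Lhx2, a cortical progenitor factor, fell by 0.30 (adjusted p = 0.0297) and 0.57 (adjusted p = 0.00125). Sall3 fell in Kif3a CRISPR (log2 -0.51, adjusted p = 0.0269), which did not pass on leaving out either control (0.0943 and 0.127) or Kif3a CRISPR replicate 1 (0.235). The Lhx2 call in Ofd1 CRISPR was lost without GFP control replicate 1 (0.0849) or 2 (0.296) or Ofd1 CRISPR replicate 2 (0.0895), and with library totals (0.0502). The neural progenitor filament gene Nes had 308 to 384 CPM in Ofd1 CRISPR, 337 to 364 CPM in Kif3a CRISPR and 351 to 399 CPM in GFP control, with overlapping libraries, and did not pass. Vim did not pass in either comparison without the second GFP control library, nor Hes5 without either; in Kif3a CRISPR both calls also ended without replicate 1 of that group, and that of Hes5 without replicate 2. Left-out libraries moved these counts: in Ofd1 CRISPR there were 1 rise and 0 falls without GFP control replicate 1 and 0 of either without replicate 2, and in Kif3a CRISPR 1 of each without GFP control replicate 1, and 0 rises and 1 fall without GFP control replicate 2 or without Kif3a CRISPR replicate 1. With the replicate block there were 2 rises and 4 falls in Ofd1 CRISPR and 3 rises and 6 falls in Kif3a CRISPR.

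Of 8 astrocyte markers 5 were tested, with 2 rises in Ofd1 CRISPR and 1 in Kif3a CRISPR and a median log2 difference of 0.28 in each, where 6.79% and 9.19% of all tested genes rose. Gja1, a gap junction gene, rose by 0.42 in Ofd1 CRISPR (adjusted p = 0.0123), and the glutamate transporter gene Slc1a2 by 0.28 (adjusted p = 0.0498); Slc1a2 rose by 0.46 in Kif3a CRISPR (adjusted p = 0.0054). Neither Ofd1 call held with either GFP control library left out, and that of Slc1a2 was also lost with RLE factors (0.0511) and without Ofd1 CRISPR replicate 1 (0.0917) or 2 (0.102); the Kif3a call ended without the first GFP control library (0.0611) or Kif3a CRISPR replicate 1 (0.0727). Gfap, the astrocyte filament gene, had 134, 34.9 and 71.1 CPM in Ofd1 CRISPR, 92.1 and 59.0 CPM in Kif3a CRISPR, and 43.3 and 43.4 CPM in GFP control. Its Ofd1 CRISPR libraries lay on both sides of the controls, and it did not pass (adjusted p = 0.15 and 0.203); it did in Ofd1 CRISPR without replicate 2 of that group (0.014), and in Kif3a CRISPR with only these groups in the fit (0.00198) or without Ofd1 CRISPR replicate 1 (0.0265). S100b and Aldoc, also tested, leaned down and did not pass. S100b averaged 23.9 CPM in Ofd1 CRISPR, 24.4 CPM in Kif3a CRISPR and 28.7 CPM in GFP control. Aldoc averaged 94.5, 78.9 and 97.3 CPM in the same order. S100b passed as lower in Ofd1 CRISPR without replicate 1 of that group (edgeR adjusted p = 0.0489). Aldoc passed as lower in Kif3a CRISPR with only these groups in the fit (0.0136) or under the replicate block (0.0499). Aqp4 and Gjb6, which mark mature astrocytes, were at 0 in every library.

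Markers of the granule neuron lineage, from which this tumour type arises, were abundant, and most of those tested rose. Of 12, 11 were tested, and in each comparison with GFP 7 rose, 1 fell and 3 did not pass (median log2 0.53 in Ofd1 CRISPR and 0.55 in Kif3a CRISPR). Of all tested genes, 6.79% rose and 8.09% fell in Ofd1 CRISPR, and 9.19% rose and 10.9% fell in Kif3a CRISPR. The summed level of the 12 markers was 3183 to 3798 CPM in Ofd1 CRISPR, 3527 to 3543 CPM in Kif3a CRISPR and 2757 to 2758 CPM in GFP control. Pax6, a granule progenitor factor, rose by 0.73 in Ofd1 CRISPR (adjusted p = 0.000458) and 0.97 in Kif3a CRISPR (adjusted p = 7.23e-05), and Cntn2, an axonal adhesion gene of young granule neurons, by 1.45 (adjusted p = 0.000914) and 1.73 (adjusted p = 0.000257). Zic4 rose by 0.59 and 0.73 and Meis1 by 0.46 and 0.55 in the same order, while Gabra6, of mature granule neurons, was at 0. The fall was that of Rbfox3 (NeuN), a marker of neurons, with log2 differences of -0.43 (adjusted p = 0.0127) and -0.47 (adjusted p = 0.0104). It was lost in Ofd1 CRISPR without either GFP control library (0.0589 and 0.096), and in Kif3a CRISPR without GFP control replicate 2 (0.0623) or Kif3a CRISPR replicate 1 (0.156). Rises in Ofd1 CRISPR numbered 7 whichever library was left out, and in Kif3a CRISPR 5 without Kif3a CRISPR replicate 1, 6 without GFP control replicate 1, and 7 or 8 otherwise. The part of a change in cell makeup in the falls of Sox2, Sox9 and Pdgfra was not tested.

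Of the remaining cell types, no myeloid marker passed in Ofd1 CRISPR by edgeR or DESeq2 (2 of 3 tested were lower at an unadjusted p under 0.05), and in Kif3a CRISPR Ctss was called lower by edgeR alone, with 0 counts in both libraries against 152 and 0 in GFP control; it did not pass by DESeq2 (0.213) or on leaving out either Kif3a CRISPR library (0.228 and 0.154) or Ofd1 CRISPR replicate 3 (0.0504). When every gene with a count was tested, edgeR called 6 myeloid markers lower in Ofd1 CRISPR and 7 in Kif3a CRISPR. Under the replicate block it called 1 and 2 lower in the same order, the 1 in Ofd1 CRISPR being Ctss (adjusted p = 7.15e-05). Myeloid markers were also called lower in each comparison with GFP control replicate 2 left out. Endothelial Cdh5 fell in Kif3a CRISPR (log2 -1.76, adjusted p = 0.0145), 1 of 2 endothelial markers tested, which did not pass on leaving out the second control (0.0922) or either Kif3a CRISPR library (0.194 and 0.075). None passed in Ofd1 CRISPR by the main edgeR fit or DESeq2, with 1 higher and 1 lower at an unadjusted edgeR p under 0.05. Cdh5 passed there as lower without Ofd1 CRISPR replicate 2 (edgeR adjusted p = 0.0398). Esam, the other tested marker, went up, with 9, 6 and 12 counts in Ofd1 CRISPR, 11 and 13 in Kif3a CRISPR, and 1 and 5 in GFP control. It passed as higher in Kif3a CRISPR under the replicate block (log2 1.93, edgeR adjusted p = 0.042). Of 9 fibroblast and pericyte markers 2 were tested, and Cspg4 in Kif3a CRISPR was the only call; none was called in Ofd1 CRISPR by either tool or at an unadjusted p under 0.05. Their sum, mostly Cspg4, was 9.51 to 10.4 CPM in Ofd1 CRISPR, 7.08 to 7.71 CPM in Kif3a CRISPR and 10.9 to 11.2 CPM in GFP control.

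Within the set, log2 CPM over the 7 libraries gave a Pearson r of 0.98 for Sox2 with Sox9, 0.96 for Sox9 with Pdgfra, 0.90 for Sox2 with Pdgfra and -0.83 for Sox2 with Prom1. These are descriptions over libraries that share their groups, so a difference between edited and control cells enters each r. Among genes averaging at least 2 CPM, 755 had an r of at least 0.9 with Sox2, 853 with Sox9 and 51 with Olig2. The nearest to Sox2 were Rab7 (0.998), Tnfaip2, Eps8l2, Pacsin1 and Sec14l1. The nearest to Sox9 were Aldh18a1 (0.998), Yars, Sept8, Mlec and Gpt2. The nearest to Olig2, whose counts are small, were Fam122a (0.979), Mrpl57, Hint1, Exosc1 and Golt1b.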

How the data were processed

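RNA was made into stranded mRNA libraries and sequenced from one end, 75 bases a read, in a single run, per the labels' protocols. The deposited table holds raw counts per gene symbol; the tools STAR and DESeq2 and the genome mm9 appear, without versions or roles, per the submitters' processing notes. The sources used here do not give the counter, its annotation or its strand setting, and reads of overlapping genes may be shared. From 24047 genes, 6795 without any count and others with few were left by filterByExpr, and 12875, holding 99.96% of all counts, were tested in R 4.3.3 with edgeR 4.0.16 (limma 3.58.1): TMM factors, 1 quasi-likelihood model over all 7 libraries with a mean per group (4 residual degrees of freedom), and Benjamini-Hochberg adjustment over all tested genes, called under 0.05. The common biological coefficient of variation was 7.43%. SE derives from the F statistic. Totals of 17961767 to 23022701 counts set the precision; intervals from counts cover counting error only, since reads carry no molecular identifiers.

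Named were all 9 genes, up to 4 called genes per list with the smallest adjusted p, list genes at 0 throughout, the 5 genes most like Sox2, Sox9 or Olig2, and 5 checks (Ofd1, Kif3a, Gli1, Ptch1 and Hhip); others were named after their values were seen. The members and the 10 other lists were chosen with earlier results of these data known. Alternatives were RLE factors, library totals, no filter, DESeq2 1.42.0, only the 2 groups compared, the replicate block and leaving out each library. The edgeR procedure was tested on simulated data.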

Additional observations from a re-analysis of the deposited data

How the results depend on the processing

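Sox2 and Sox9 kept their fall and passed in all 13 alternatives of both comparisons with GFP, from -0.70 to -0.64 and -0.71 to -0.56 on the log2 scale in Ofd1 CRISPR, and from -0.88 to -0.71 and -0.89 to -0.71 in Kif3a CRISPR. Pdgfra passed in 12 of 13 in each and Prom1 in 10 of 13 in Kif3a CRISPR; the libraries concerned are named with their values above. Genes called in Ofd1 CRISPR against GFP numbered 1915, with 3496 under the replicate block and 675 to 2831 when libraries were left out (675 without GFP control replicate 1, 816 without replicate 2). For Kif3a CRISPR against GFP there were 2584, and 686 to 3119 with a library left out (686 without Kif3a CRISPR replicate 1, 1099 and 1362 without GFP control replicate 1 and 2); members called numbered 2 to 4. For Ofd1 CRISPR against Kif3a CRISPR there were 23, with 80 when every gene with a count was tested, 191 under the replicate block, 103 by DESeq2, and 0 to 50 with a library left out (0 without Kif3a CRISPR replicate 1 by edgeR, 555 at an unadjusted p under 0.05). Using library totals alone moved the share of calls that were higher to 57.6% in Ofd1 CRISPR, against 45.6% with TMM.

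The direction reversed for genes that had not passed. With a library left out, Olig2 in Kif3a CRISPR ran from -0.63 (without Kif3a CRISPR replicate 2) to 0.54, at -0.14 without GFP control replicate 1, and Fabp7 from -0.56 (without Kif3a CRISPR replicate 1) to 2.40. In Ofd1 over Kif3a CRISPR, Pdgfra ran from -0.0194 (without Kif3a CRISPR replicate 1) to 0.54, at -0.0022 without Ofd1 CRISPR replicate 3 and -0.0194 under the replicate block, and Fabp7 from -1.18 to 1.42 (without Kif3a CRISPR replicate 1). The cause was not tested. Libraries of the same replicate number had correlations of their deviations from -0.0086 to 0.23, those with an Ofd1 CRISPR library from 0.15 to 0.23. Libraries of different numbers had -0.23 to 0.10. In a group of 2 libraries the deviations mirror each other, so this check cannot decide whether the numbers pair the libraries. The replicate block left 3, 4 and 0 members called in the 3 comparisons. Counts are few for Sox3, Olig1, Olig2 and Fabp7.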

Other observations

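Fabp4, the adipocyte member of the Fabp family, had 9.57 CPM in Ofd1 CRISPR replicate 2 (172 counts), 0.296 and 0.360 CPM in the other Ofd1 CRISPR libraries, 0 in both Kif3a CRISPR libraries, and 0.442 and 0.200 CPM in GFP control. It had too few counts elsewhere to be tested in the main fit. When every gene with a count was tested, 1 of the 3 other Fabp genes was called higher in Ofd1 CRISPR and none in Kif3a CRISPR.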
